A study of Mus musculus with 8 samples.

Results

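The 10 genes described here are 7 matrix metalloproteases, Mmp12, Mmp13, Mmp8, Mmp9, Mmp2, Mmp14 and Mmp19, and 3 of their tissue inhibitors, Timp1, Timp2 and Timp3. They were taken by gene symbol from a table of 56691 genes, and all 10 were among the 15870 genes that passed the filter on low counts. Mmp12 was chosen by its CPM (counts scaled to depth): it was higher in every Vsig4 knockout (KO) library than in any wild-type (WT) library, so its KO against WT values are a description with no test. RNA was sequenced in bulk from Kupffer cells, which are liver-resident macrophages, of mice that had received B16F10 cells, a mouse melanoma line that grew as liver metastases in all groups. One group came from WT mice (4 libraries) and the other from Vsig4-/- mice (4 libraries), both taken at day 7. Vsig4 encodes a complement receptor of tissue macrophages, and the labels name no restriction of its loss to a cell type. The sources used here give no strain, sex, age or injection route and do not state that each library came from a separate animal, so p-values measure the spread between libraries, which may be technical. Live cells positive for the pan-leukocyte marker CD45 and for Tim-4, a receptor of resident Kupffer cells, were sorted before RNA was extracted.

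Matrix metalloproteases are zinc-dependent enzymes that cut collagens, elastin, proteoglycans and many non-matrix proteins outside the cell. Most are made as inactive precursors that must lose a propeptide, and the tissue inhibitors of metalloproteases (TIMPs) block the active enzymes by binding their catalytic site. Macrophages are a known source of several of them, above all of Mmp12, which is called macrophage elastase. In the liver they take part in the breakdown of scar matrix and in the passage of cells through tissue.

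Vsig4 itself was counted 22498 to 46735 times in the WT libraries and 2 to 9 times in the KO libraries, so every library followed its label. Counts summed to between 15264043 (WT 1) and 19513844 (KO 2) per library. The summed level of 12 Kupffer cell markers, all of them detected in each library, was 21663 to 39393 CPM in WT and 8575 to 26736 in KO. Markers of other cells were also present. The sum of 10 melanoma markers was 572, 505, 5650.1 and 4834 CPM in WT 1 to 4 and 2555, 3647, 12624 and 6575 CPM in KO 1 to 4, so that WT 1 and WT 2 were lowest and KO 3 highest. Hepatocyte markers summed to 1623 to 2986 CPM in WT and 1069 to 1574 in KO, and stellate cell and fibroblast markers to 92.4 to 235 CPM in WT and 62.2 to 76.2 in KO. For each of these last lists the exact 2-sided permutation test over 70 splits gave p = 0.0286, the smallest it can give, and 0.129 after adjustment over 9 marker lists. Among the hepatocyte markers Trf alone had genotypes that did not overlap, at 1285 ± 346 CPM in WT and 799.6 ± 193 in KO. Alb, at 614 ± 491 and 293 ± 179.9 CPM, and the other members overlapped. Log2 fold changes in this list ran from -1.18 (Cps1) to -0.04 (Apoa1). The hepatocyte sum without Trf was not tested. Neutrophil markers summed to 217 to 301 CPM in WT and 138 to 306 in KO. Log2 fold changes of its 8 tested members ran from -2.23 (Ngp) to 0.70 (Cxcr2). Ly6g, Camp and Elane were too low to be tested. Ly6g had 0 counts in every WT library and 4, 1, 3 and 3 counts in KO 1 to 4. Camp and Elane were lower in KO on average, at 0.921 and 1.73 CPM in WT and 0.333 and 0.53 CPM in KO. In such bulk RNA, fewer cells of a type and less RNA per cell cannot be told apart.

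The counts that follow leave out Mmp12, whose values chose it, and cover the other 9 genes. None of them passed the test of KO against WT over all genes (edgeR quasi-likelihood, Benjamini-Hochberg adjusted p under 0.05), where 0.00630% of tested genes did, which was Vsig4 alone. At an unadjusted p under 0.05 there were 2 of the 9, Mmp13 and Timp1, beside 8.78% of all tested genes (4.23% with KO higher and 4.56% with KO lower), and DESeq2 called 0 of the 9, beside 0.416% of all (0.189% with KO higher and 0.227% with KO lower). The log2 fold change was above 0 for 6 of the 9 and below 0 for 3, beside 49.6% of all tested genes above and 50.4% below. The CPM ranges of the genotypes did not overlap for 1 of the 9, Mmp13, which was higher in KO, beside 5.56% of all tested genes without overlap (2.71% higher and 2.85% lower in KO). Deviations from the group means correlated between libraries with the same number in their titles, but were not set against differently numbered libraries. With the number as a block, edgeR called 1 of the 9, Mmp13, higher in KO. Over all tested genes it called 8.98% in that direction and 14.0% in either. The blocked count over all genes, 2220, was 210, 2, 1 and 2199 without pairs 1, 2, 3 and 4 in turn, so it rested on pairs 1, 2 and 3.

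**Figure D1:**
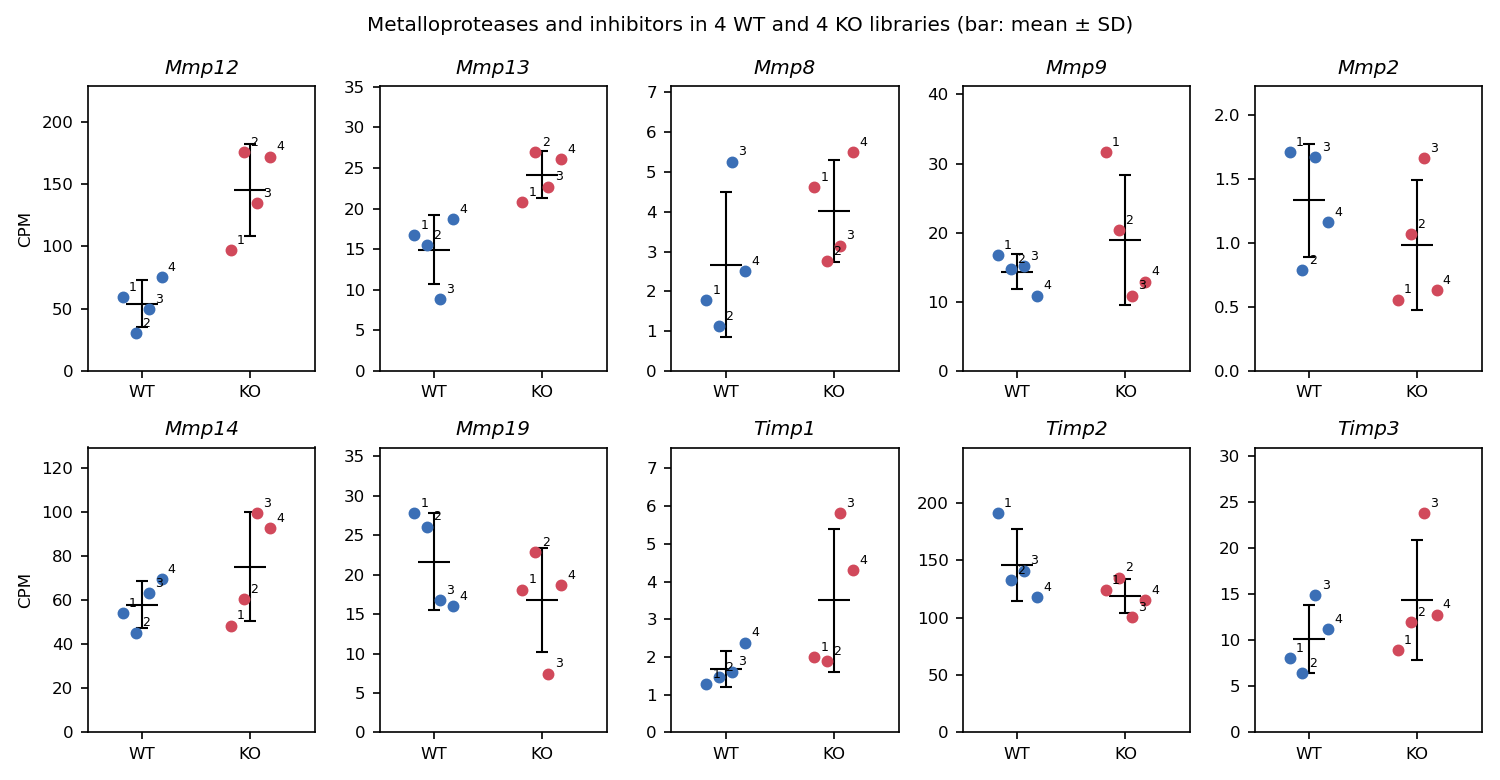
Level of each of the 10 genes in CPM (linear axis from 0) in the 4 WT and 4 KO libraries, one point per library with its number, and bars for the group mean and SD. The genotypes are apart for Mmp12, which was chosen for it, and for Mmp13, and overlap for the other 8 genes.

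The genes differed widely in level per length of transcript, given here as the FPKM (fragments scaled to exon length and depth) that the authors deposited. Timp2 was highest in both genotypes, at 36.0 ± 6.67 FPKM (SD, n = 4) in WT and 31.3 ± 3.07 in KO. In WT it was followed by Mmp14 (9.50 ± 2.25 FPKM), Mmp12 (7.27 ± 2.79 FPKM), Mmp19 (5.87 ± 1.33 FPKM), Mmp13 (5.39 ± 1.54 FPKM) and Mmp9 (3.92 ± 0.596 FPKM). Timp1, Timp3, Mmp8 and Mmp2 lay at or below 1.85 FPKM on average in WT. Neighbours in this order had overlapping ranges except Timp2 against Mmp14 and Mmp9 against Timp1. In KO Mmp12 stood directly behind Timp2 at 20.7 ± 5.52 FPKM, before Mmp14 (13.1 ± 4.75 FPKM), Mmp13 (9.32 ± 1.25 FPKM), Mmp9 (5.45 ± 2.5 FPKM) and Mmp19 (4.87 ± 1.84 FPKM). There the ranges of neighbours were apart only for Timp2 against Mmp12 and for Mmp8 against Mmp2. Within each library, Mmp12 was below Mmp14 in 4 of 4 WT libraries and above it in 4 of 4 KO libraries on the FPKM scale. This change of order, like the rank of Mmp12 in KO, rests on the values that chose Mmp12.

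Mmp12, Mmp13 and Mmp8 lie in a cluster of metalloprotease genes on chromosome 9. Mmp12 (ENSMUSG00000049723, chr9:7344381-7369499 on the plus strand as deposited) encodes an elastase that macrophages secrete. Mmp13 (ENSMUSG00000050578, chr9:7272514-7283331, plus strand) encodes collagenase-3, the main interstitial collagenase of rodents. The gap between their deposited ends was 61.0 kb. The sequences before their start sites are shown because these neighbours were the only 2 of the 10 genes whose genotypes were apart. RefSeq's table for GRCm38.p6 held entries for 7 of the 10 genes, 8 in all since Mmp12 has 2, and not for Mmp19, Mmp9 and Mmp2. Each line gives the 250 bases before an annotated start on the plus strand: chr9:7272264-7272513 for Mmp13, chr9:7344147-7344396 for the upstream start of Mmp12 and chr9:7347124-7347373 for its downstream start. The upstream Mmp12 window held 16 exon bases of the annotated gene. The downstream window lay inside the gene, ending 2993 bases after its annotated start, and held 0 exon bases. Capitals mark matches to the AP-1 motif TGANTCA and to the TATA box letters TATAAA.
Mmp13: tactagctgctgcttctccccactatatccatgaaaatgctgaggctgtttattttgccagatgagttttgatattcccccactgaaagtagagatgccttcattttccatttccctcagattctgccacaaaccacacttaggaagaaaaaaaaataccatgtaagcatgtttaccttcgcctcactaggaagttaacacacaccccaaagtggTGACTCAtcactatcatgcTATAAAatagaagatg
Mmp12 upstream start: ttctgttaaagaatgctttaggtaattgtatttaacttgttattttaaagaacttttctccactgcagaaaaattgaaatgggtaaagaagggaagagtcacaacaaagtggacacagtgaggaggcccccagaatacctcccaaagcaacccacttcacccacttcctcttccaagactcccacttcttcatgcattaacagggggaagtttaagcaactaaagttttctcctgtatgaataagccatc
Mmp12 downstream start: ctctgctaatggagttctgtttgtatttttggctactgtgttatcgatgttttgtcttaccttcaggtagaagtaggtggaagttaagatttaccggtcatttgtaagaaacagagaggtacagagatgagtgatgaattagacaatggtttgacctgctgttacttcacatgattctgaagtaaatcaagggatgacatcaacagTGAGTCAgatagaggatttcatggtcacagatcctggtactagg

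AP-1 is the family of Fos and Jun factors, and its motif is well known in collagenase promoters. On either strand TGANTCA was found in 6.75% of the same-length windows of 32851 promoter entries. Of the 7 genes with an entry, 2 held it: Mmp13 at 35 to 29 bases before its start and Mmp12 at 44 to 38 bases before its downstream start. In GENCODE M21, 5 Mmp12 transcripts begin within 50 bases of that downstream start and 1 within 50 bases of the upstream one. TATAAA, present in 12.4% of all windows, was found in Mmp13 only, 16 to 11 bases before the start. AGGAAG, a core of the PEA3 (Ets) motif, was present in 6 of the 7 genes and in 29.5% of all windows. Such matches describe the letters in these windows and were not tied to the counts by any test.

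Mmp12 was at 59.4, 30.3, 49.9 and 75.6 CPM in WT 1 to 4 and at 97.1, 176, 135 and 172 CPM in KO 1 to 4. The lowest KO library was KO 1 and the highest WT library WT 4, so the groups were separated by the step from 75.6 to 97.1 CPM. The means were 53.8 ± 18.9 CPM in WT and 145 ± 36.8 CPM in KO (SD, n = 4 each), a log2 fold change of 1.43 ± 0.293 (SE), or 2.69-fold. These levels rest on 539 to 1177 counts per WT library and 1744 to 3443 per KO library, and the spread between libraries was 35.2% of the mean in WT and 25.4% in KO. Between libraries of equal number the log2 ratio was 0.71, 2.54, 1.43 and 1.18 for numbers 1 to 4. The largest ratio joined WT 2, the lowest of all libraries, with KO 2, the highest. Leaving out 1 library at a time gave 1.22 to 1.63. The value was 1.20 ± 0.294 with the melanoma markers as a covariate, and 1.24 ± 0.304 with WT 1, WT 2 and KO 3 left out. As a share of the summed FPKM of 23 annotated Mmp genes, Mmp12 made up 10.2 ± 3.42% in WT and 24.0 ± 4.68% in KO.

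Mmp13 was at 16.7, 15.5, 8.85 and 18.7 CPM in WT and 20.8, 27.0, 22.7 and 26.1 CPM in KO. Every KO library lay above every WT library, but the step between the highest WT value, 18.7, and the lowest KO value, 20.8, was narrow. The means were 14.9 ± 4.26 and 24.2 ± 2.92 CPM, a log2 fold change of 0.69 ± 0.226 or 1.62-fold, which did not pass the test over all genes (adjusted p = 0.492, edgeR). With the replicate number as a block the log2 fold change was 0.73 ± 0.178 and passed (adjusted p = 0.0373, edgeR), but the adjusted p was 0.0639, 0.125 and 0.0923 without pairs 1, 2 and 3 and 0.0475 without pair 4. The pairs differed by log2 ratios of 0.32, 0.80, 1.36 and 0.48. Removing WT 3, the library lowest in Mmp13, brought the unblocked value to 0.51, the lowest when 1 library was left out. With the melanoma covariate it was 0.79 ± 0.248. The FPKM ratio of Mmp12 to Mmp13 was 1.40 ± 0.559 in WT and 2.19 ± 0.325 in KO.

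Mmp8 (ENSMUSG00000005800, chr9:7558457-7568486, plus strand) encodes the collagenase of neutrophil granules. It was low throughout, at 1.78, 1.12, 5.26 and 2.51 CPM in WT and 4.62, 2.76, 3.15 and 5.51 CPM in KO, or 20 to 105 counts. WT 3 was among the highest libraries, and the genotypes overlapped. KO minus WT on the log2 scale was 0.59 ± 0.474 (adjusted p = 0.538, edgeR) with the WT spread at 68.2% of the mean. Without WT 3 it was 1.15, and with the melanoma covariate 0.22 ± 0.405.

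The rest of the cluster was mostly silent. Over 427 kb the deposited table placed 10 Mmp genes, of which Mmp1a, Mmp10 and Mmp20 had 0 counts in all libraries, where the limit that 0 counts allows is 3 counts or 0.153 to 0.214 CPM. Mmp3 had 1 count in total, Mmp1b 3 and Mmp7 15. Mmp27, a less studied secreted or retained metalloprotease, was the exception at 35.1 ± 2.78 FPKM in WT and 28.6 ± 9.89 FPKM in KO. That exceeded Mmp12 in mean FPKM in both genotypes. Its log2 fold change was -0.38 ± 0.274 (adjusted p = 0.512, edgeR), a sign opposite to that of Mmp12, Mmp13 and Mmp8, but 0.012 without WT 1, WT 2 and KO 3. As a share of all Mmp FPKM, Mmp27 made up 50.4, 56.5, 46.3 and 46.7% in the WT libraries and 39.3, 38.4, 20.4 and 32.7% in the KO libraries, of a sum that holds Mmp12, which was chosen for its higher KO values. The CPM of Mmp27 itself overlapped, at 67.2 to 90.1 in WT and 30.0 to 82.4 in KO. Mmp1b overlaps Mmp12 on the opposite strand by 1261 deposited bases and had at most 2 counts in a library.

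**Figure D2:**
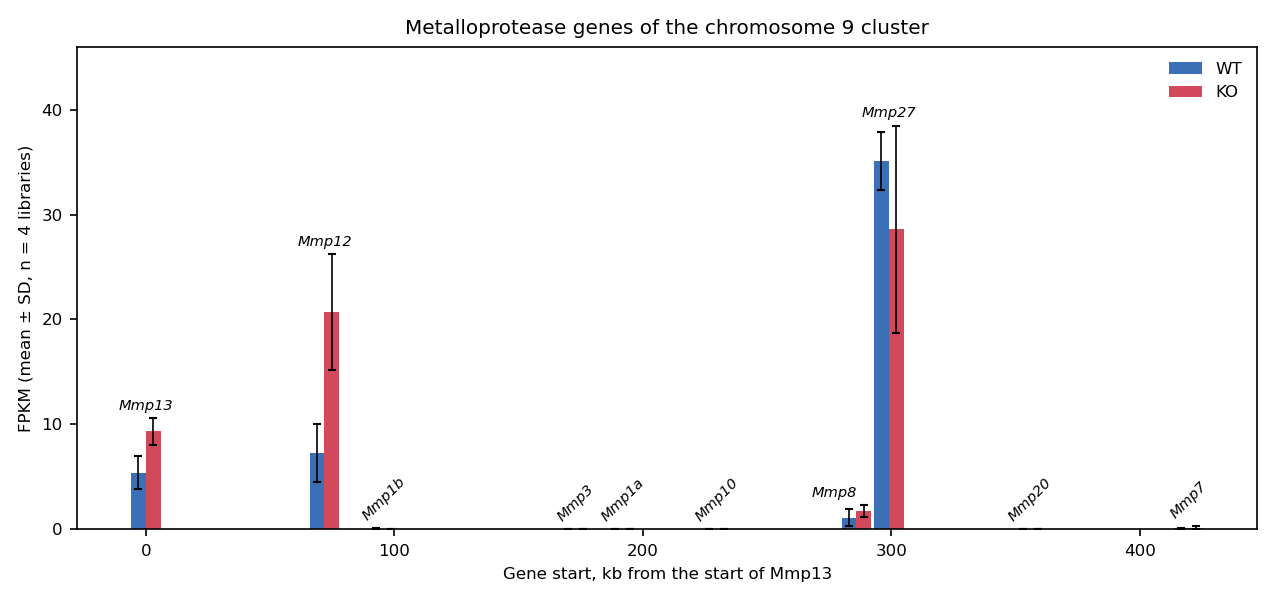
Metalloprotease genes of the chromosome 9 cluster by distance in kb from the deposited start of Mmp13, with each gene's deposited FPKM in WT and KO (bars, mean and SD, n = 4). Mmp12, Mmp13 and Mmp8 had the higher mean in KO, and Mmp27 had the highest FPKM of the cluster.

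Gelatinases cut denatured collagen and basement membrane collagen. Mmp9 (ENSMUSG00000017737, chr2:164782700-164797770, plus strand), gelatinase B, was at 16.7, 14.7, 15.2 and 10.9 CPM in WT and 31.7, 20.4, 10.9 and 12.9 CPM in KO. KO 1 and KO 2 were above all WT libraries, KO 1 the most, and KO 3 and KO 4 lay within the WT range or at its lower end. Its log2 fold change was 0.40 ± 0.33 (adjusted p = 0.545, edgeR), and without KO 1 it was 0.034. Mmp2 (ENSMUSG00000031740, chr8:93553919-93580048, plus strand), gelatinase A, which fibroblasts and stellate cells typically make, was at 1.71, 0.786, 1.67 and 1.16 CPM in WT and 0.557, 1.07, 1.66 and 0.63 CPM in KO. It was the lowest of the 10 genes per length in both genotypes and the genotypes overlapped. The KO counts ran from 10 (95% Poisson interval 4.80 to 18.4, counting error only) to 30 (20.2 to 42.8). The log2 fold change was -0.44 ± 0.437 (adjusted p = 0.598, edgeR). The sum of the stellate cell and fibroblast markers was also lower in KO. Its members changed most in Col3a1, Col1a1, Col1a2 and Dcn (-1.91, -1.89, -1.85 and -1.23), and the others ran from -0.74 (Reln) to 0.63 (Des). The part of such cells in the Mmp2 values was not tested. An opposite-strand gene, Gm45472, overlaps Mmp2 by 1471 bases and had 56 to 86 counts per library, more than Mmp2. The counting's strand setting is not known from the labels, so reads of the 2 cannot be told apart with certainty.

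Mmp14 (ENSMUSG00000000957, chr14:54669069-54682821, plus strand) encodes the membrane-type protease MT1-MMP, which cuts collagen at the cell surface and activates Mmp2. It was at 54.0, 45.3, 63.2 and 69.5 CPM in WT and 48.4, 60.6, 99.4 and 92.5 CPM in KO. KO 3 and KO 4 were above all WT libraries, and KO 1 and KO 2 lay inside the WT range. KO minus WT on the log2 scale was 0.38 ± 0.244 (adjusted p = 0.496, edgeR). It was 0.01 ± 0.191 with the melanoma markers as covariate and 0.02 ± 0.259 when WT 1, WT 2 and KO 3 were left out.

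Mmp19 (ENSMUSG00000025355, chr10:128626779-128636693, plus strand) encodes a secreted protease found in myeloid cells and other tissues. It was at 27.8, 26.1, 16.8 and 16.0 CPM in WT and 18.1, 22.9, 7.47 and 18.7 CPM in KO. KO 3 was lowest and WT 1 and WT 2 were highest, which is the reverse of their order in melanoma markers. Its log2 fold change was -0.37 ± 0.341 (adjusted p = 0.578, edgeR). It was 0.09 ± 0.254 with the covariate and 0.28 ± 0.161 without those 3 libraries. Per 1000 CPM of the Kupffer markers, Mmp19 was 0.706, 0.67, 0.774 and 0.644 CPM in WT and 0.679, 0.881, 0.871 and 0.935 CPM in KO. It overlaps Tmem198b on the opposite strand by 789 bases, a gene with 120 to 207 counts.

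**Figure D3:**
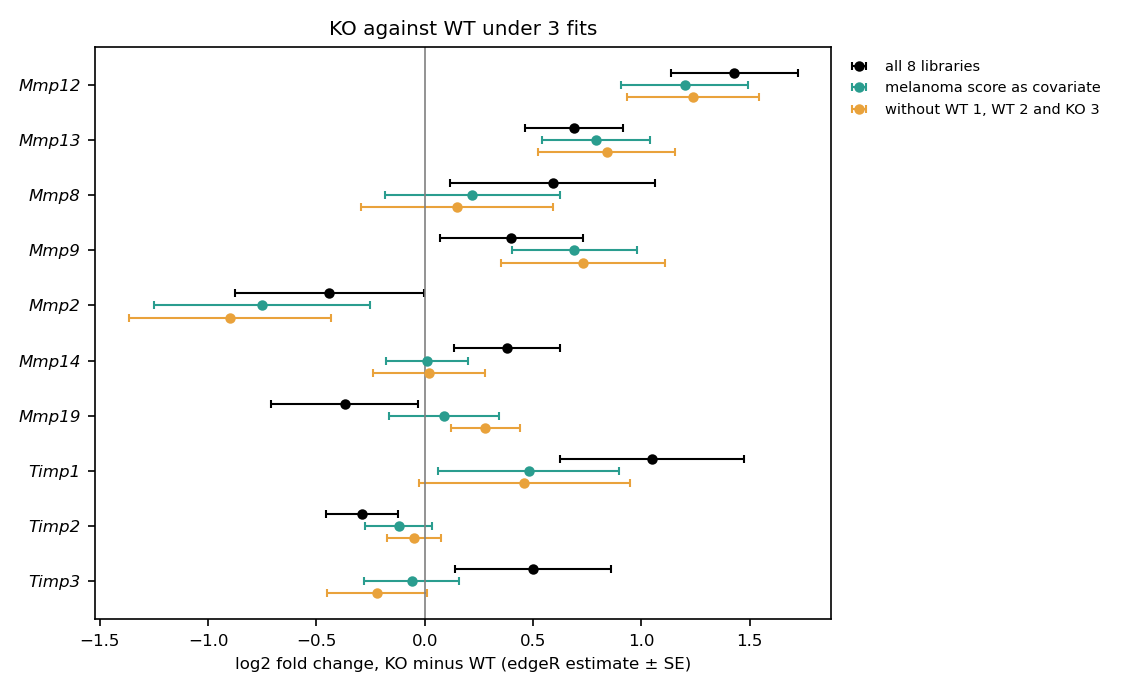
Log2 fold change of KO over WT for each of the 10 genes with its SE, from edgeR on all 8 libraries, with the melanoma markers as covariate, and without WT 1, WT 2 and KO 3. Mmp14 is near 0 in the last 2 fits, Mmp19 and Timp3 change sign, and the other genes keep theirs.

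Among the inhibitors, Timp1 (ENSMUSG00000001131, chrX:20736405-20740974, plus strand) is the soluble TIMP whose transcription is induced in injured liver. It was at 1.28, 1.46, 1.61 and 2.38 CPM in WT and 2.0, 1.89, 5.81 and 4.30 CPM in KO. KO 3 and KO 4 were high, and KO 1 and KO 2 were within the WT range. The means of 1.68 ± 0.483 and 3.50 ± 1.90 CPM came from 18 to 105 counts, and the log2 fold change of 1.05 ± 0.426 (2.08-fold) did not pass the test (adjusted p = 0.492, edgeR). The block did not call it either (0.95 ± 0.318, adjusted p = 0.0815, edgeR). With the melanoma covariate it was 0.48 ± 0.418. Timp1 lies within Syn1, a gene on the opposite strand with 112 to 375 counts, over 4570 bases, so some of these counts may not be separable.

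Timp2 (ENSMUSG00000017466, chr11:118191895-118246566, minus strand), which both inhibits metalloproteases and helps Mmp14 activate Mmp2, was at 191, 133, 141 and 118 CPM in WT and 124, 135, 100.2 and 115 CPM in KO. WT 1 was highest and KO 3 lowest, with overlap between. The log2 fold change was -0.29 ± 0.167 (adjusted p = 0.492, edgeR), and -0.12 ± 0.154 with the covariate. Timp2 made up 91.9 ± 3.07% of the Timp FPKM in WT and 84.1 ± 8.31% in KO. Timp3 (ENSMUSG00000020044, chr10:86136236-86185370, plus strand), the matrix-bound TIMP that also inhibits ADAM17, was at 8.04, 6.46, 14.9 and 11.2 CPM in WT and 8.90, 12.0, 23.8 and 12.8 CPM in KO. KO 3 was highest and WT 1 and WT 2 were among the lowest. KO minus WT on the log2 scale was 0.50 ± 0.359 (adjusted p = 0.511, edgeR), but -0.06 ± 0.22 with the melanoma covariate and -0.22 ± 0.23 without WT 1, WT 2 and KO 3. Timp3 lies within Syn3, an opposite-strand gene with 24 to 57 counts. The ratio of summed Mmp FPKM to summed Timp FPKM was 1.83 ± 0.285 in WT and 2.30 ± 0.313 in KO, with Mmp12 in the sum.

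The libraries differed in melanoma RNA, so each gene was set against the melanoma marker sum on a log2 scale over the 8 libraries, in 10 relations. Both are shares of the same library, the genotypes were pooled, and p-values are from exact permutation of 40320 pairings, 2-sided. Timp3 rose with the sum (Pearson r = 0.906, p = 0.000595, adjusted 0.00595, Spearman rho = 0.952, p = 0.00114, adjusted 0.0057). Mmp19 fell with it by Pearson's r and not by rank (r = -0.807, p = 0.00553, adjusted 0.0277, rho = -0.762, p = 0.0368, adjusted 0.0919). Mmp14 passed by rank and not by Pearson's r (r = 0.822, p = 0.0176, adjusted 0.0588, rho = 0.952, p = 0.00114, adjusted 0.0057). With WT 1 and WT 2 left out, whose sums lay farthest from the median, r was 0.937 for Timp3 (exact p = 0.0111, adjusted 0.0625), 0.923 for Mmp14 (p = 0.0125, adjusted 0.0625) and -0.806 for Mmp19 (p = 0.0667, adjusted 0.133), so none passed after adjustment in the 6 that remained.

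For Mmp12 the relation was r = 0.668 (exact permutation p = 0.0749, adjusted 0.107) with rho = 0.500 (p = 0.216, adjusted 0.27). The r fell to 0.125 without WT 1 and WT 2, so it rested on those libraries. The mean marker sum was also higher in KO, at 6350.4 CPM against 2890.3 in WT. With the genotypes pooled, the relation carries the difference that Mmp12 was chosen for. Its p-values are thus a description, though Mmp12 was kept among the 10 relations of the adjustment. The part of melanoma RNA in the Mmp12 values was not tested. Mmp13 had r = 0.225 (exact permutation p = 0.603, adjusted 0.67) and rho = 0.381 (p = 0.36, adjusted 0.4). Timp1 (r = 0.783), Mmp8 (r = 0.745) and Timp2 (r = -0.738) each had an adjusted exact permutation p of 0.0592. Without WT 1 and WT 2 they gave r = 0.789, -0.049 and -0.668.

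**Figure D4:**
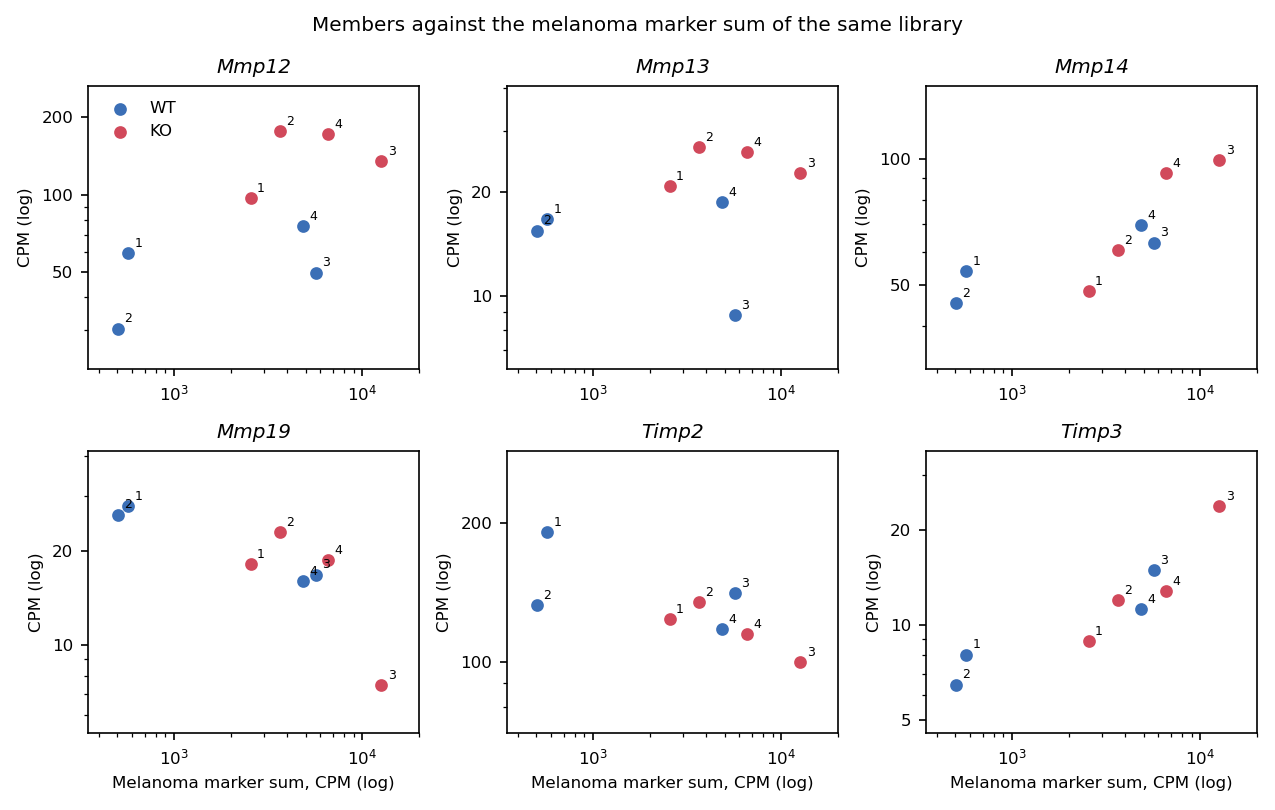
Level of 6 of the genes in CPM (log axis) against the summed melanoma markers of the same library in CPM (log axis), one point per library with its number. Mmp14 and Timp3 were higher and Mmp19 lower where the marker sum was higher.

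By a fixed rule, the tested genes whose log2 CPM pattern over the 8 libraries was most like that of Mmp12 were Nsun5 (Pearson r = 0.978, an rRNA methyltransferase), Napepld (0.973, a phospholipase that makes N-acylethanolamines), Ercc2 (0.954, a helicase of TFIIH), Map3k6 (0.949, a stress kinase) and Gdpd1 (0.945). After subtracting the genotype means, r was 0.953, 0.892, 0.823, 0.812 and 0.754 for the same genes in that order, which describes genes selected for a high r over these libraries. Among the proteases and inhibitors, r was 0.788 for Mmp13, 0.671 for Timp1 and 0.642 for Mmp14, which carries the genotype difference that Mmp12 was chosen for. After subtraction the order differed, with 0.594 for Mmp14, 0.411 for Mmp2, 0.405 for Timp3, 0.390 for Mmp13 and 0.290 for Timp1. Mmp9 had r = 0.052 and -0.445 after subtraction, and Mmp27 had r = -0.416. These correlations describe 8 libraries, in which depth and composition are shared by all genes.

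The genes that work with these proteases and inhibitors were taken from lists. Of a list of 17, made up of other Mmp genes and Timp4, 6 were tested, with 3 above and 3 below 0 and none called with or without the block. Mmp25, a membrane-anchored protease of leukocytes, was 3.74 ± 0.851 CPM in WT and 2.69 ± 1.04 in KO (log2 fold change -0.47 ± 0.32, adjusted p = 0.5, edgeR). Mmp23 was 1.04 ± 0.443 and 0.905 ± 0.515 CPM (-0.19 ± 0.479, adjusted p = 0.832, edgeR), with a sign that depended on WT 1 (0.026 without it). Of 18 ADAM and ADAMTS genes, 16 were tested and none passed without the block, and with it 3 were higher and 2 lower in KO (edgeR), beside 8.98% and 5.01% of all genes. Mmp12 aside, whose values chose it, the block called no gene of any list described here without pair 1, 2 or 3. Adam10, the sheddase of many surface proteins, was 385 ± 121 CPM in WT and 279.5 ± 62.8 in KO (log2 fold change -0.46 ± 0.255, adjusted p = 0.492 in edgeR, and -0.44 ± 0.106, 0.0381 with the block). It was -0.01 ± 0.118 with the melanoma covariate and 0.11 ± 0.154 without WT 1, WT 2 and KO 3. Adamdec1, a macrophage ADAM-like protease, was 205 ± 50.3 CPM in WT and 132 ± 42.8 in KO (log2 fold change -0.64 ± 0.286, adjusted p = 0.492 in edgeR, and -0.67 ± 0.12, 0.0254 with the block), but -0.25 ± 0.203 with the covariate and -0.11 ± 0.148 without those libraries. Adamts12 was 1.37 ± 1.13 CPM in WT and 4.19 ± 2.11 in KO (1.61 ± 0.666, adjusted p = 0.492 in edgeR, and 1.81 ± 0.406, 0.0319 with the block), but 0.80 ± 0.354 with the covariate and 0.46 ± 0.333 without those libraries. Adamts2, which trims procollagen, was 1.31 ± 0.4 CPM in WT and 0.549 ± 0.181 in KO (-1.25 ± 0.362, adjusted p = 0.492 in edgeR and 0.0653 with the block). Of the 16 tested, 1 was higher in KO without overlap, Adamts12, and 1 lower, Adamts2, beside 2.71% and 2.85% of all tested genes. Adam9 was 176 ± 22.9 and 174 ± 5.2 CPM, with a log2 fold change of -0.02 ± 0.115.

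Of 19 genes for activation or restraint of metalloproteases, 14 were tested, 3 were above and 11 below 0, with a median log2 fold change of -0.24 beside -0.003 over all tested genes. The median was -0.09 with the melanoma covariate and -0.01 without WT 1, WT 2 and KO 3. Bsg (basigin), known as an inducer of metalloproteases, was 204 ± 16.2 CPM in WT and 242 ± 49.4 in KO (adjusted p = 0.495, edgeR), and Cd44 was 783 ± 148 and 730.1 ± 48.5 CPM (adjusted p = 0.743). Mrc1, the mannose receptor that takes up collagen fragments, was 1426 ± 423 and 982 ± 447 CPM (log2 fold change -0.54 ± 0.4, adjusted p = 0.516), but 0.15 without WT 1, WT 2 and KO 3.

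Of 20 matrix genes, all tested, 11 were above and 9 below 0. At an unadjusted p under 0.05 (edgeR), 0 were higher and 7 lower in KO, beside 4.23% and 4.56% of all tested genes. DESeq2 called Col3a1 lower (adjusted p = 0.0491), beside 0.227% of all tested genes called lower. The genotypes did not overlap for 2 of the 20, both lower in KO, beside 2.85% of all tested genes. These were Dcn (decorin), at 51.1 ± 27.3 CPM in WT and 21.7 ± 3.87 in KO, and Col6a1, at 5.15 ± 3.28 and 1.36 ± 0.37 CPM. Their log2 fold changes were -1.23 ± 0.331 and -1.92 ± 0.506, each with an adjusted p of 0.492 in edgeR. Dcn, Col1a1, Col1a2 and Col3a1 of this list are also among the 12 stellate cell and fibroblast markers. The lower sum of those markers in KO is thus partly made of the same values. The part of such cells in the Dcn and Col6a1 values was not tested. With the block, 5 matrix genes were higher (Col4a1, Fbln1, Fbln5, Lama4 and Lamc1) and 2 lower (Col3a1 and Fbn1), beside 8.98% and 5.01% of all genes, and none without pair 1, 2 or 3. With the melanoma covariate the log2 fold changes of the 5 were 0.01, 0.16, -0.12, -0.03 and 0.13 in that order, and those of the 2 were -1.80 and -1.62. The median log2 fold change of the list was 0.25, and -0.26 with the melanoma covariate. Fn1 (fibronectin) was 256 ± 79.5 CPM in WT and 152 ± 60.4 in KO (-0.75 ± 0.31, adjusted p = 0.492). Fbln1 (fibulin-1) was 21.4 ± 19.6 CPM in WT and 52.2 ± 37.2 in KO (1.28 ± 0.818, adjusted p = 0.494 in edgeR and 0.031 with the block), but its log2 fold change was -0.14 with WT 1, WT 2 and KO 3 left out.

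Of 11 genes of lipid-associated and matrix-remodelling macrophages, 10 remain when Mmp12 is left out. Of these, 6 were above and 4 below 0, and none was called without the block. With it 5 were higher and 1 lower, beside 8.98% and 5.01% of all genes, and none without pair 1, 2 or 3. The 5 were Gpnmb, Cd9, Cd63, Fabp5 and Itgax, and the lower one was Lpl. With the melanoma covariate the log2 fold changes of the 5 were -0.18, 0.25, 0.11, 0.19 and 0.31 in that order, and that of Lpl was 0.20. Itgax (CD11c), whose genotypes did not overlap, was 99.5 ± 12.8 CPM in WT and 132 ± 20.2 in KO (log2 fold change 0.41 ± 0.142, adjusted p = 0.492 in edgeR and 0.0408 with the block, but 0.105 without pair 4). Gpnmb, which melanoma cells also express, was 396 ± 384 CPM in WT and 802 ± 622 in KO (1.02 ± 0.89, and -0.18 with the melanoma covariate). Spp1 (27.0 ± 9.8 and 32.1 ± 13.3 CPM), Lgals3 (356 ± 49.2 and 321 ± 92.2 CPM) and Lpl (1356 ± 642 and 944 ± 500 CPM) had genotypes that overlapped. The median over the 10 was 0.33, and 0.15 with the covariate.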

How the data were processed

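Bulk RNA was measured in 4 WT and 4 KO libraries. The deposited table holds raw counts per gene, per the file headers, and FPKM computed by the authors. These deposited FPKM matched count over exonic size and column total within 0.015 for 100% of genes. Exonic sizes and positions are other numbers that the authors deposited. HTSeq 0.6.1 and mm10 were used, per the submitters' processing notes. Neither aligner nor strandedness nor annotation version was given in the sources used here. Only 1435 of 52073 identifiers shared with GENCODE M21 (GRCm38) had the same position, so coordinates are given as deposited, with no build. Column letters were read as C for WT and K for KO, and 0 columns were unmapped. CPM values use TMM-scaled library sizes.

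The 10 genes and all lists were chosen with earlier results of these data known. All 10 are named, as are, of each list, up to 4 genes past the threshold or else the 3 highest in mean FPKM and up to 2 whose genotypes do not overlap, and the 5 genes most like Mmp12. Genes kept by filterByExpr (15870) were scaled by TMM and tested, 2-sided, with edgeR 4.0.16 in R 4.3.3 (quasi-likelihood, adjusted p threshold 0.05), and the SE was taken from the coefficient and F statistic. For correlations, log2 CPM had a prior count of 2. The scripts were tested on simulated data. Deviations of same-numbered libraries from the group means correlated at 0.561, 0.544, 0.66 and 0.29 for numbers 1 to 4, and a block on the number was run as an alternative. They were not set against differently numbered libraries, so they do not show a pairing. The labels do not state such a pairing. Alternatives were the block, RLE factors, no filter, DESeq2 1.42.0, limma 3.58.1 on log2(FPKM + 1) or (FPKM + 0.1), a melanoma covariate and leaving out libraries. Leaving out WT 1, WT 2 and KO 3 together, and leaving pairs out of the block, were chosen after seeing the data. Poisson intervals are at 95%.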

Additional observations from a re-analysis of the deposited data

Results flagged for a closer look

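A value was picked out where, among the 4 libraries of a genotype, its gap to the nearest other library as a share of the group's range exceeded Dixon's 95% critical value. That happened in 3 of 78 groups of named genes, where chance flags about 1 in 20 groups, and in none of the 10 proteases and inhibitors. Adamts2, a procollagen peptidase, was at 1.91 CPM in WT 2 and at 1.07 to 1.16 CPM in the other WT libraries. Lgals3, galectin-3, was at 184 CPM in KO 3 and at 348 to 378 CPM in the other KO libraries. Mmp23 was at 1.67 CPM in KO 1 and at 0.553 to 0.714 CPM in the other KO libraries.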

How the results depend on the processing

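The number of genes called, 1 in the reported fit, was 2220 with the replicate block, 66 with DESeq2, 2 without a filter and 1 to 2 when 1 library was left out, with 2 without KO 2 or without KO 3. The block gave 210 genes without pair 1, 2 without pair 2 and 2199 without pair 4. Of the 10 proteases and inhibitors, Mmp12 included, whose values chose it, 0 were called, and 2 with the block, 1 (Mmp12) with DESeq2, 1, 0, 0 and 2 with the block without pairs 1, 2, 3 and 4, and 0 whichever library was left out. Of the list genes, 0 were called, 18 with the block, 1 with DESeq2, 0 with the block without pair 1, 2 or 3, 24 without pair 4 and 0 whichever library was left out. The direction of the 10 genes was kept in 196 of 200 refits and that of the other named genes in 369 of 400. The exceptions among the 10 were Mmp19 (0.095 with the melanoma covariate and 0.28 without WT 1, WT 2 and KO 3) and Timp3 (-0.063 and -0.22). Among the others, the covariate gave 0.11 for Mmp23, 0.11 for Adam9, 0.073 for Cd44, 0.048 for Lgals3, 0.20 for Lpl and -0.18 for Gpnmb. Leaving out those 3 libraries gave 0.012 for Mmp27, 0.16 for Mmp23, 0.11 for Adam10, 0.14 for Adam9, 0.15 for Mrc1, 0.10 for Cd44, -0.098 for Spp1, -0.14 for Fbln1, 0.14 for Lgals3, 0.43 for Lpl and -0.50 for Gpnmb. Limma gave 0.077 and 0.079 for Adam9 and 0.0034 and 0.0035 for Cd44 at pseudocounts 1 and 0.1. Single libraries reversed Mmp23 (-0.66 to 0.026), Adam9 (-0.095 to 0.034, 0.023 without WT 1), Cd44 (-0.19 to 0.027), Spp1 (-0.021 to 0.48) and Lgals3 (-0.24 to 0.039). With the block, Adam9 was 0.017 without pair 1 and 0.053 without pair 2, Mmp23 0.092 without pair 3 and Spp1 -0.26 without pair 1. The number of relations to the melanoma sum that passed, 2 of 10, was 0 without the 2 farthest libraries and 0 to 6 when 1 was left out (0 without WT 2, 6 without WT 3, 1 without KO 3). There r reversed for Mmp13 (-0.015) and Mmp8 (-0.049) without those 2, and for Mmp2 (-0.075 without WT 2, -0.114 without KO 3, at most 0.495). The cause of these changes was not tested. Depth limits Mmp2, Mmp8 and Timp1 most, at 10 to 105 counts per library.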

Other observations

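Per 1000 CPM of the Kupffer cell markers, Mmp12 was at 1.51, 0.779, 2.3 and 3.04 CPM in WT 1 to 4 and at 3.63, 6.76, 15.7 and 8.58 CPM in KO 1 to 4. The highest of these values was in KO 3, the library with the lowest Kupffer marker sum and the highest melanoma marker sum, whereas on the plain CPM scale KO 2 and KO 4 were above KO 3. The summed FPKM of all 23 Mmp genes, Mmp12 included, was 70.3 ± 4.37 in WT and 85.9 ± 14.1 in KO (SD, n = 4 each).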
